A study of Rattus norvegicus with 6 samples.

Results

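The 6 features described here are a chosen set of non-collagen glycoproteins and matricellular proteins of the extracellular matrix on a rat array: Fibronectin (Fn1), Osteonectin (Sparc), Tenascin C (Tnc), Thrombospondin 1 (Thbs1), Fibrillin-1 (Fbn1) and Agrin (Agrn). Cyr61 and FISP-12, matricellular proteins also on the array, are not among them and appear below with the related lists. The 6 members were taken by name from the 311 features of the array, and all 6 were found. These members and the related lists below were chosen with earlier results of these data known, so their counts are descriptions only. The study profiled the transcription regulator HMGA2 in rat ovarian surface epithelial cells, with and without K-RAS transformation, on 6 spotted arrays with 2 dyes each. On each array the sample competed with untreated ROSE199, a line derived from rat ovarian surface epithelium, so a value is the log2 ratio of sample over ROSE199 and 0 means the ROSE199 level.

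The first group was ROSE199 stably transfected with the empty pEF6 vector (empty vector, 1 array). The second was ROSE199 stably transfected with pEF6 carrying HMGA2 (HMGA2, 2 arrays). Both lines were selected in 10 µg/ml blasticidin, and the sources used here do not give whether they were clones or pools. The other groups were ROSEA25 cells. These are read here as ROSE199 transformed with K-RAS, because the treatment protocol names ROSE-RAS. They received siRNA duplexes against EGFP (siEGFP, the control, 1 array) or against HMGA2 (siHMGA2, 2 arrays) at 0.2 µM, given again after 24 h, and were harvested 48 h after the first dose. All cells were grown in 10% serum. K-RAS transformation and siRNA treatment came together, so siEGFP against ROSE199 holds both, and no untreated ROSEA25 sample was analysed here. The features of the targeted genes followed the labels: HMGI-C (HMGA2) read 3.70 and 3.33 on the HMGA2 arrays, 2.40 with siEGFP, 1.20 and 1.59 with siHMGA2 and 0.26 with the empty vector. K-ras read 4.25 to 4.82 on the 3 ROSEA25 arrays and -0.29 to 0.03 on the others.

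The labels do not say whether the paired arrays of HMGA2 and of siHMGA2 came from separate cultures. They were taken here as dye-swapped labellings of a single RNA, with the sample in Cy5 on replicate 1 and in Cy3 on replicate 2. The single arrays of the empty vector and siEGFP had the sample in Cy5. On that reading no group has replicate cultures, so no p-value is given and each error below is taken to cover labelling and hybridization only. Quantification of both HMGA2 arrays took place on a separate day from the rest, so HMGA2 and that day cannot be told apart. The 5 markers of ovarian surface epithelium and mesothelium on the array (WT1, Megakaryocyte potenciating factor, E-cadherin, P-cadherin and DOC-2) were above the blank spots in the ROSE199 channel of all 6 arrays. So were Collagen alpha, SM22 and TPM2 of the fibroblast and smooth muscle markers, while Thy-1 was on 5. Being above blank thus does not tell the cell type. In bulk RNA, fewer cells of a kind and less RNA per cell cannot be told apart.

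The extracellular matrix is the protein network that cells secrete and attach to. Its glycoproteins give structure and adhesion sites: fibronectin forms fibrils that integrins bind, fibrillin-1 builds the microfibrils of elastic tissue, and agrin is a heparan sulfate proteoglycan of basement membranes. Matricellular proteins, among them thrombospondin 1, osteonectin and tenascin C, are secreted into the matrix but act mainly as modulators of adhesion, growth factor activity and remodelling. Loss of fibronectin and thrombospondin 1 expression is a long-known trait of many cells transformed by RAS oncogenes.

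Thrombospondin 1 and Agrin carried the differences described below, so the 250 bases before their annotated start are shown (RefSeq, GRCr8, 5′ to 3′ on the gene's strand). The Thbs1 window is chr3:125510000-125510249 (+ strand) and the Agrn window is chr5:172052826-172053075 (- strand). Capitals mark GGGCGG and CCAAT matches on either strand in Thbs1, and in Agrn the letters AATT, the core of the AT-rich stretches that HMGA proteins are known to bind.
Thbs1: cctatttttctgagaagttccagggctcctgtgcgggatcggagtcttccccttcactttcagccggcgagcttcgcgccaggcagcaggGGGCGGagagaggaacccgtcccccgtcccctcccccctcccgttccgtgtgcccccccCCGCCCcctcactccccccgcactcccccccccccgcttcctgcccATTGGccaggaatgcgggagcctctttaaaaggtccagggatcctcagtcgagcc
Agrn: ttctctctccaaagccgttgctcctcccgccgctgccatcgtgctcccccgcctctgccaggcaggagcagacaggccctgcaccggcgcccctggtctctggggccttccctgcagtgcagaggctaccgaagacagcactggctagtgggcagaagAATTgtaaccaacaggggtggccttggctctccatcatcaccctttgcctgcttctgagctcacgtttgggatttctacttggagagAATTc

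The Thbs1 window held 2 matches of GGGCGG and 1 of CCAAT and no match of AATT, of the TATA box letters TATAAA, of the AP-1 site letters TGANTCA or of the CArG box. The Agrn window held 2 matches of AATT and none of the other 5 motifs. Among 33469 rat promoters of the same length, read on both strands, GGGCGG (bound by Sp1) occurred in 30.5%, CCAAT in 34%, AATT in 49.2%, the TATA box letters in 12.9%, the AP-1 site letters in 6.34% and the CArG box in 1.5%. The share of A and T was 32.4% in Thbs1 and 39.6% in Agrn, against a median of 48.8% over all promoters. In the other windows, Tnc held 1 TATA box match, 1 match of GGGCGG and 2 of AATT, of which 1 overlaps the TATA box match, while Sparc and Fbn1 held none of the 6 motifs. All 6 members matched a gene symbol and 5 had a promoter entry; Fn1 is named only. A match describes letters in the window and was not tested as a binding site.

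Each member was printed as 4 or 5 spots per array, and all 36 member values (6 members on 6 arrays) were measured, with 2 spots left out as poor. The ROSE199 channel was above the blank spots (their mean plus 3 SD) for 36 of 36 values and the sample channel for 35 of 36. The exception was Fibrillin-1 with siEGFP, where the net signal was 134 against a limit of 142. The SD of the log2 ratio between spots of a member on an array had a median of 0.12 and ranged from 0.02 to 0.84, the highest being Thrombospondin 1 on siHMGA2 replicate 2. All spots of a feature lay in the same subgrid of the array, so spots are not independent measurements.

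**Figure D1:**
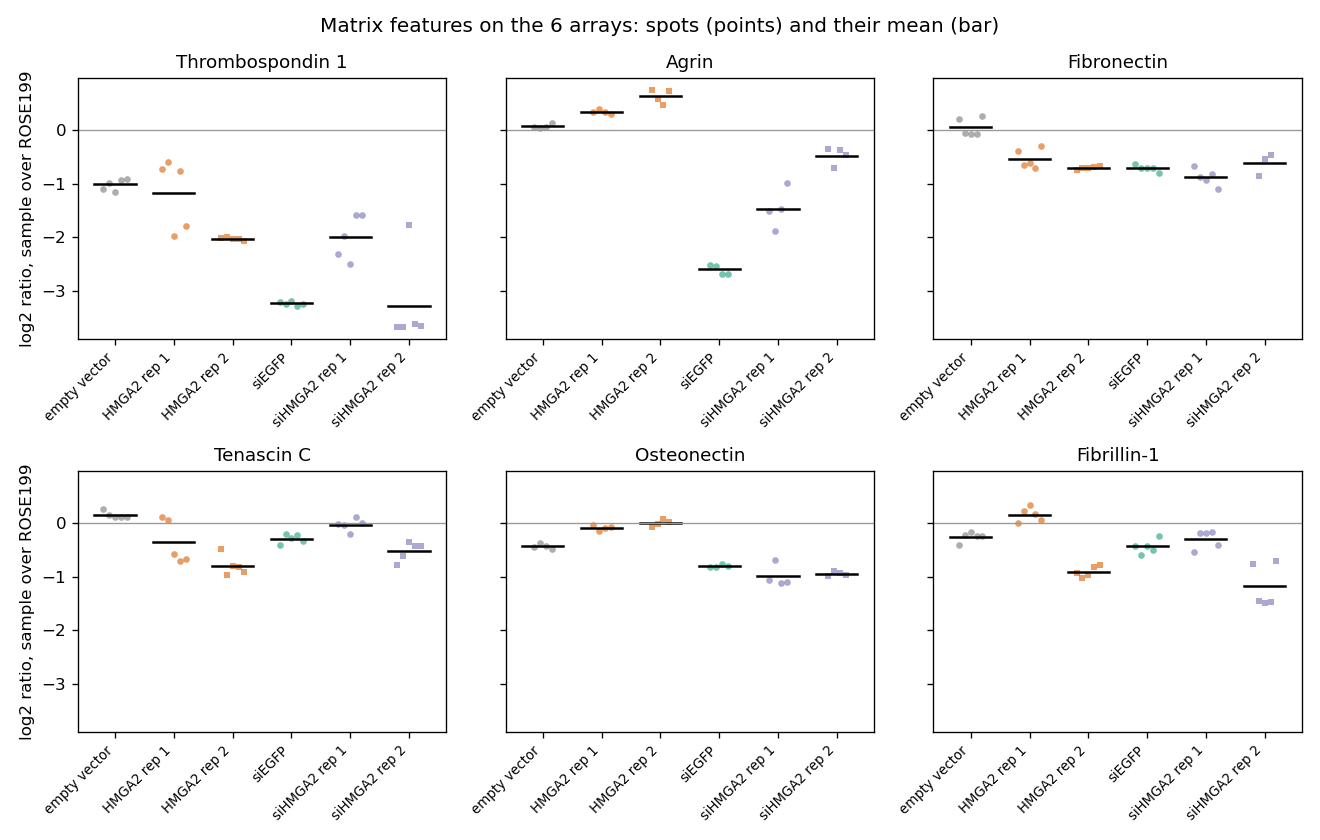
Log2 ratio of sample over ROSE199 (vertical axis) for each spot (points; circles, sample in Cy5; squares, sample in Cy3) of the 6 matrix features on the 6 arrays (horizontal axis), with the mean over spots as a bar. Thrombospondin 1 is below 0 on all 6 arrays, from -1.01 to -3.28, and Agrin is below 0 on the 3 arrays of ROSEA25 cells only.

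Thrombospondin 1, a secreted glycoprotein that inhibits angiogenesis and activates latent TGF-beta, was below the ROSE199 level on all 6 arrays. Its log2 ratio was -1.01 with the empty vector, -1.17 and -2.03 on the HMGA2 arrays, -3.23 for siEGFP, and -1.99 and -3.28 for siHMGA2. The ROSEA25 arrays were lower than the ROSE199 transfectants when arrays of the same dye orientation are set side by side, although siHMGA2 replicate 1 (Cy5) and HMGA2 replicate 2 (Cy3) nearly coincided. The dye orientation mattered for this feature: replicate 1 read 0.86 above replicate 2 in HMGA2 and 1.29 above it in siHMGA2. The fitted dye term, Cy5 minus Cy3, was 1.07, larger in size than that of 98.7% of the 311 features.

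Agrin, the basement membrane proteoglycan that also clusters acetylcholine receptors at the neuromuscular junction, separated the ROSE199 transfectants from the ROSEA25 cells. Its log2 ratio was 0.07 with the empty vector, 0.35 and 0.63 on the HMGA2 arrays, -2.60 for siEGFP, and -1.46 and -0.47 for siHMGA2. The 3 arrays of ROSE199 transfectants lay above 0 and the 3 arrays of ROSEA25 cells below it, and siEGFP was the lowest. Other features split the arrays in the same way, among them P-cadherin, TRPM-2 and TEL. The share of all features that do so was not counted. Here replicate 2 (Cy3) was the higher of each pair, by 0.29 in HMGA2 and 0.99 in siHMGA2, and the dye term was -0.64.

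Fibronectin, the fibril-forming ligand of integrins, was near the ROSE199 level with the empty vector, at 0.06, and below it elsewhere. It read -0.53 and -0.70 on the HMGA2 arrays, -0.71 for siEGFP, and -0.87 and -0.62 for siHMGA2. The empty vector stood apart from all other arrays while HMGA2, siEGFP and siHMGA2 overlapped. Its dye term of -0.04 is the mean of gaps of opposite sign (replicate 1 minus 2: 0.17 in HMGA2, -0.25 in siHMGA2). The value of siHMGA2 replicate 2 rests on 3 spots.

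Osteonectin, a collagen-binding matricellular protein also called SPARC, was lowest in ROSEA25 cells. Its log2 ratio was -0.43 with the empty vector, -0.09 and 0.01 on the HMGA2 arrays, -0.80 for siEGFP, and -0.99 and -0.94 with siHMGA2. The 3 ROSEA25 arrays lay below the 3 arrays of ROSE199 transfectants, an order that P-cadherin, TRPM-2 and TEL, among others, also had. Both siHMGA2 labellings of Osteonectin lay below siEGFP. The dye term was -0.07.

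Tenascin C, a modulator of adhesion that is abundant in wounds and tumour stroma, read 0.16 with the empty vector, -0.35 and -0.79 on the HMGA2 arrays, -0.28 for siEGFP, and -0.02 and -0.52 with siHMGA2. The HMGA2 and ROSEA25 arrays overlapped. The gaps within the pairs were 0.44 and 0.50, and the dye term, which in this fit is their mean, was 0.47. Fibrillin-1, the main component of microfibrils, read -0.25 with the empty vector, 0.16 and -0.90 on the HMGA2 arrays, -0.43 for siEGFP, and -0.29 and -1.18 with siHMGA2. Its gap between dye orientations, 1.06 in HMGA2 and 0.88 in siHMGA2, was larger than any difference between its Cy5 arrays, and in HMGA2 the sign differed between the labellings.

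To compare groups, a linear model with a level for each group and a common dye term was fitted to every feature, and the spread was pooled over all 311 features. The dye term of the single-array groups comes from the other groups. A feature is called where its fitted log2 difference is at least 1 in size (2-fold), exceeds 2 pooled standard errors (SE) and keeps its sign when only Cy5 arrays are used. The pooled SE serves all features alike. It understates the error of features whose gap between labellings differs widely between HMGA2 and siHMGA2. Among these are Agrin (replicate 1 minus 2: -0.29 and -0.99), Thrombospondin 1 (0.86 and 1.29) and Fibronectin (0.17 and -0.25).

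**Figure D2:**
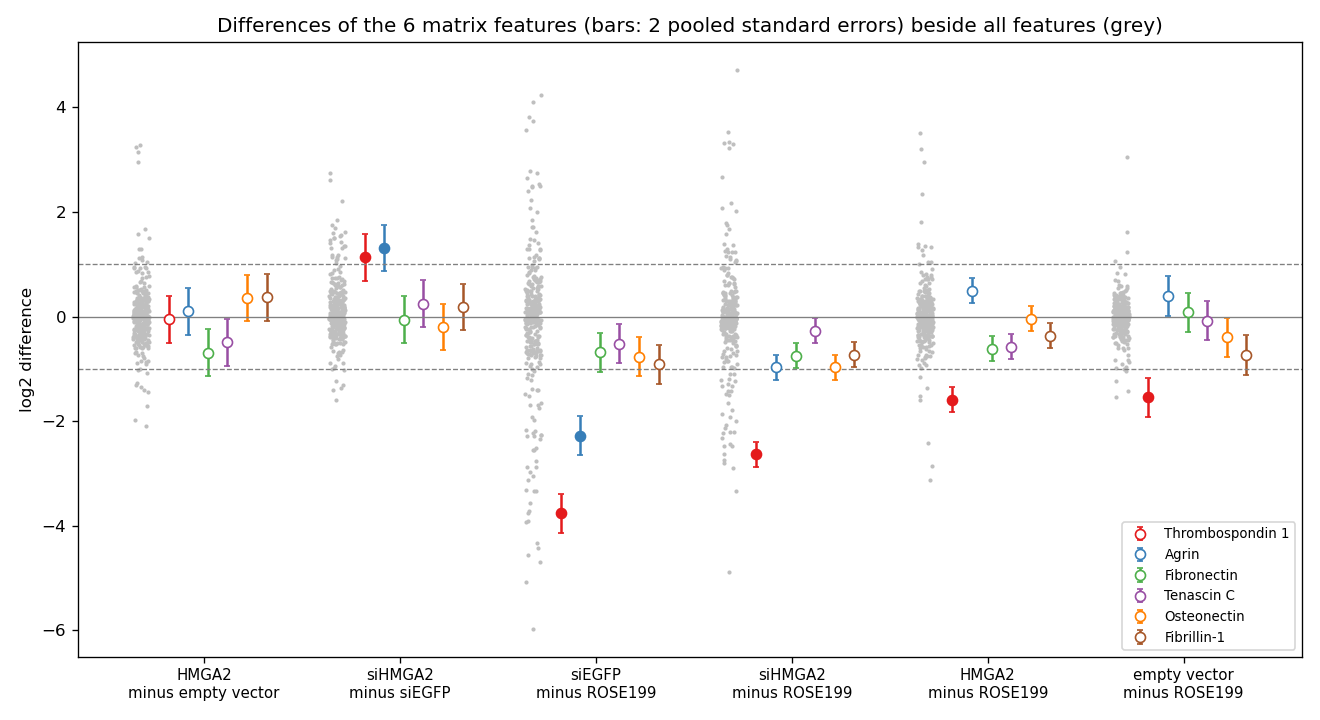
Fitted log2 difference (vertical axis) of the 6 matrix features in the 6 comparisons (horizontal axis), with bars of 2 pooled SE, beside all 311 features (grey points). Filled points are called and dashed lines mark a size of 1; Thrombospondin 1 is called in 5 comparisons and Agrin in 2.

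HMGA2 overexpression in ROSE199 left all 6 members short of a call against the empty vector. No member was called higher, where 4.5% of the 311 features were, and none lower, where 3.22% were. The median difference of the members was 0.02, beside 0.00 over all features, and 3 members were below 0. The member farthest from 0 was Fibronectin, at -0.69 ± 0.22 (pooled SE), a fitted 1.62-fold lower level. Without HMGA2 replicate 1 it was -1.01 and was called, so the count then became 1. Tenascin C followed at -0.50, while Osteonectin was 0.36 and Fibrillin-1 0.37 higher, all with the same SE of 0.22.

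Thrombospondin 1 differed by -0.05 between HMGA2 and the empty vector, with a range of 2 SE from -0.50 to 0.40. The sign changed with the processing: -0.59 without a dye term and 0.50 with arrays scaled to the same spread. Agrin differed by 0.10, with a range of 2 SE from -0.35 to 0.55. Neither difference could be told from 0 at this precision.

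HMGA2 knockdown in ROSEA25 cells went with higher levels of Agrin and Thrombospondin 1. Against siEGFP, 2 of the 6 members were called higher and none lower, where 8.68% of all features were called higher and 2.25% lower. The members' median difference was 0.21, beside 0.03 over all features. Agrin was 1.31 ± 0.22 higher, a 2.48-fold difference, and Thrombospondin 1 was 1.13 ± 0.22 higher, a 2.19-fold difference. Osteonectin was -0.20, Fibronectin -0.06 and Tenascin C 0.25. Fibrillin-1 has no fold here, since its siEGFP signal was not above blank. The siEGFP array enters this comparison and the one of siEGFP with ROSE199 with opposite sign, so a reading error there would move both.

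The Agrin difference was called under 17 of 18 alternative settings, with values of 0.67 to 1.84; with arrays scaled to the same spread it was 0.67 and was not called. Thrombospondin 1 was higher with siHMGA2 under all 18 but called under only 10, with values of 0.29 to 1.35. Its call was lost with scaled arrays (0.29), with the brightest spot only (0.43), with median centring (0.45), with beta actin centring (0.57) and with the authors' deposited table (0.57). It was also lost without a dye term (0.60), without siHMGA2 replicate 1 (0.81) and with a background offset of 1 (0.95).

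The ratios of Thrombospondin 1 moved with the brightness of its spots. On siHMGA2 replicate 2, the brightest spot (6434 net units in the ROSE199 channel) read -3.67 and the dimmest (515 units) read -1.77. On HMGA2 replicate 1, the brightest (7352 units) read -1.97 and the dimmest (649 units) -0.59. On siHMGA2 replicate 1, the brightest (1775 units) read -2.49 and the dimmest (785 units) -1.58. Dim spots thus read closer to 0 than bright spots of the same feature on these 3 arrays.

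On siEGFP, all 5 Thrombospondin 1 spots were bright, at 7151 to 7769 units, and read -3.27 to -3.18. Every spot of siHMGA2 replicate 1 was dimmer than these, so that array and siEGFP share no brightness range for this feature. With the brightest spot of each feature alone, a setting chosen after seeing the data, the fitted siHMGA2 level was -3.08 and the difference from siEGFP was 0.43.

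For Agrin the siEGFP spots (2876 to 3390 units) were likewise brighter than those of siHMGA2 replicate 1 (579 to 1462 units) and replicate 2 (325 to 800 units). On siHMGA2 replicate 1 the brightest Agrin spot read -1.88 and the dimmest -0.98. The siEGFP spots read -2.68 to -2.51, below that brightest siHMGA2 spot, but no siHMGA2 spot was as bright as they were. With the brightest spots alone the difference was 1.07 and was called, again between spots of unlike brightness. The part of brightness in the Agrin difference was not tested.

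**Figure D3:**
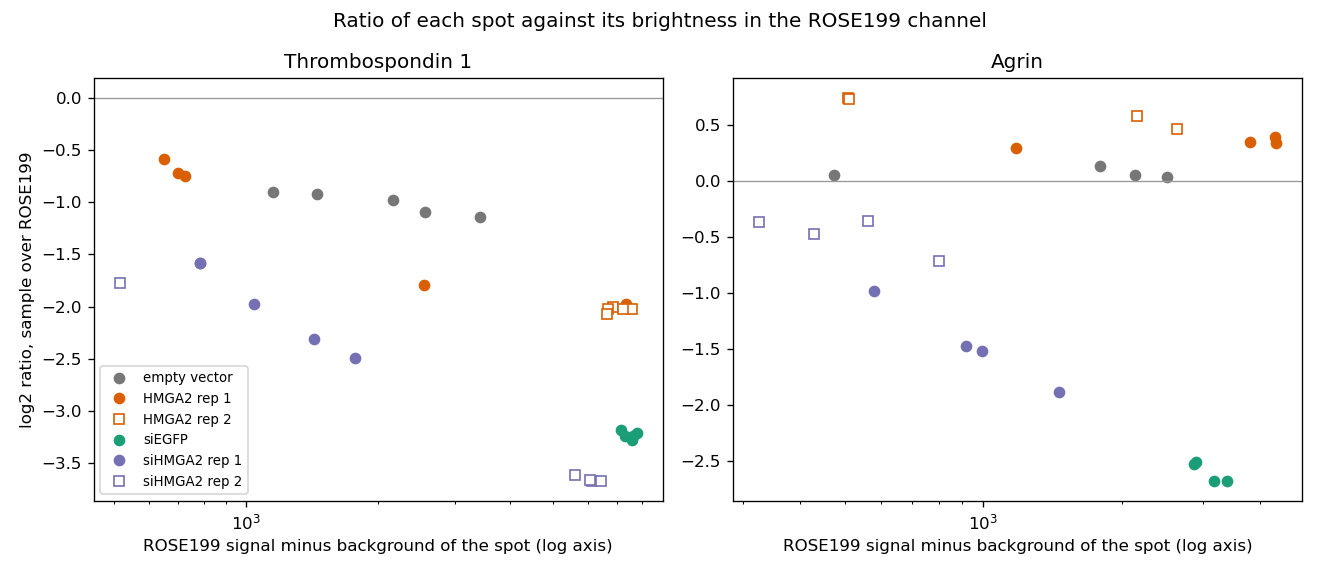
Log2 ratio of each Thrombospondin 1 and Agrin spot (vertical axis) against its ROSE199 signal minus background in scanner units (horizontal log axis), coloured by array, with filled circles for the sample in Cy5 and open squares for Cy3. Within siHMGA2 replicate 1 the ratio goes from -1.58 at 785 units to -2.49 at 1775 units for Thrombospondin 1, while the siEGFP spots lie at 7151 to 7769 units.

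Against ROSE199, siEGFP-treated ROSEA25 cells had lower levels of all 6 members. The members' median was -0.84, beside -0.02 over all features, of which 50.5% were below 0. Of the 6, 2 were called lower and none higher, where 15.4% of all features were called lower and 11.3% higher. Thrombospondin 1 was -3.77 ± 0.19, a 13.6-fold lower level, and Agrin was -2.28 ± 0.19, 4.85-fold lower. Before the dye term, which comes from the other groups, the siEGFP array itself read -3.23 for Thrombospondin 1 and -2.60 for Agrin. Both members were called under all 18 alternatives, with ranges of -3.97 to -2.76 and -2.60 to -1.70. Osteonectin (-0.77), Fibronectin (-0.69) and Tenascin C (-0.52) were short of the 2-fold limit but beyond 2 SE. Fibrillin-1 is given no fold, since its siEGFP signal was not above blank, and its siEGFP array read -0.43. Its fitted difference of -0.92 passed the limit of 1 under 6 of the 17 alternatives that held it, with values of -1.48 to -0.42 over the 17.

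With siHMGA2 all 6 members were again below ROSE199, with a median of -0.86 beside -0.03 over all features, of which 56.9% were below 0. Only Thrombospondin 1 was called lower and none higher, where 10.3% of all features were called lower and 8.68% higher. It read -2.63 ± 0.12, a 6.20-fold lower level, and was called under all 18 alternatives (-3.08 to -1.99). Agrin and Osteonectin, both at -0.97 ± 0.12, lay just inside the limit of 1 and were called under 7 and 3 of the 18 alternatives. Fibronectin was -0.75, Fibrillin-1 -0.74 and Tenascin C -0.27.

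The ROSE199 transfectants shared the low Thrombospondin 1. With the empty vector it was -1.55 ± 0.19, a 2.92-fold lower level and the lowest fitted value of all 311 features in that comparison. It was the 1 member called lower, where 1.61% of all features were. Its only empty vector array reads -1.01 before the dye term, where Collagen alpha (-1.40) and Lox (-1.09) read lower. The lowest rank thus rests on the dye term, which comes from the other groups. Thrombospondin 1 was called lower here under all 18 alternatives (-1.92 to -1.01). With HMGA2 it was -1.60 ± 0.12, 3.02-fold lower, again the 1 member called lower, where 2.25% of all features were. That call was made under all 18 alternatives too, the value nearest to 0 being -1.17. Transfection and selection are common to both lines, and their part in this level was not tested.

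The remaining members moved less in the transfectants. HMGA2 against ROSE199 gave -0.61 for Fibronectin, -0.57 for Tenascin C, -0.37 for Fibrillin-1, -0.04 for Osteonectin and 0.49 for Agrin, each ± 0.12. The empty vector gave 0.08 for Fibronectin, -0.08 for Tenascin C, -0.74 for Fibrillin-1, -0.40 for Osteonectin and 0.39 for Agrin, each ± 0.19. Before the dye term, which comes from the other groups, its only array read -0.25 for Fibrillin-1 and 0.16 for Tenascin C. The members' median was -0.47 with HMGA2 and -0.24 with the empty vector.

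Ordered by fitted level, Thrombospondin 1 ran from siEGFP (-3.77) through siHMGA2 (-2.63), HMGA2 (-1.60) and the empty vector (-1.55) to ROSE199, and only HMGA2 and the empty vector did not differ beyond 2 SE. Agrin ran from siEGFP (-2.28) through siHMGA2 (-0.97), ROSE199, the empty vector (0.39) and HMGA2 (0.49), where again only the last pair lay within 2 SE. The empty vector passed 2 SE narrowly and through the dye term taken from the other groups, since its own array read 0.07. For Fibronectin the siHMGA2, siEGFP and HMGA2 levels lay within 2 SE of their neighbours and below ROSE199 and the empty vector. For Osteonectin and Tenascin C no neighbours in the order differed beyond 2 SE. Fibrillin-1 is given no order: its siEGFP signal was not above blank, and HMGA2 against ROSE199 was -0.37 in the fit but 0.16 on the Cy5 array alone.

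Setting the cell types side by side with both controls, siEGFP minus the empty vector was -2.67 for Agrin and -2.22 for Thrombospondin 1, each ± 0.24, but this difference holds vector selection, siRNA treatment and K-RAS together. Fibronectin was -0.77, Tenascin C -0.44 and Osteonectin -0.37 in that comparison. Even with siHMGA2, Agrin was 1.36 and Thrombospondin 1 1.09 below the empty vector on the log2 scale (fitted differences of -1.36 and -1.09, each ± 0.22).

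The deposited table of log2 ratios gave other values for some members on the siEGFP array. In the authors' deposited table Fibronectin was -2.15 there, while its 5 spots read -0.80 to -0.63. Tenascin C was -1.93 in the authors' deposited table, against spots of -0.40 to -0.20. Centred on the median without loess, the spots gave -0.31 and -0.33. For Thrombospondin 1 the authors' deposited table gave -2.16, against -3.23 from the spots, and for Agrin -2.03 against -2.60.

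With the ratios of the authors' deposited table, 4 members were called lower in siEGFP against ROSE199, adding Fibronectin (-2.50) and Tenascin C (-2.03). Of all 311 features, 60 were called lower there, against 48 in the main fit. In siHMGA2 against siEGFP that table gave 1.79 for Fibronectin and 2.05 for Tenascin C, both called, where the spots gave -0.06 and 0.25. It called 38 of the 311 features higher in that comparison, against 27 in the main fit. Which siEGFP reading of Fibronectin and Tenascin C holds was not tested, and both their siEGFP comparisons depend on it.

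**Figure D4:**
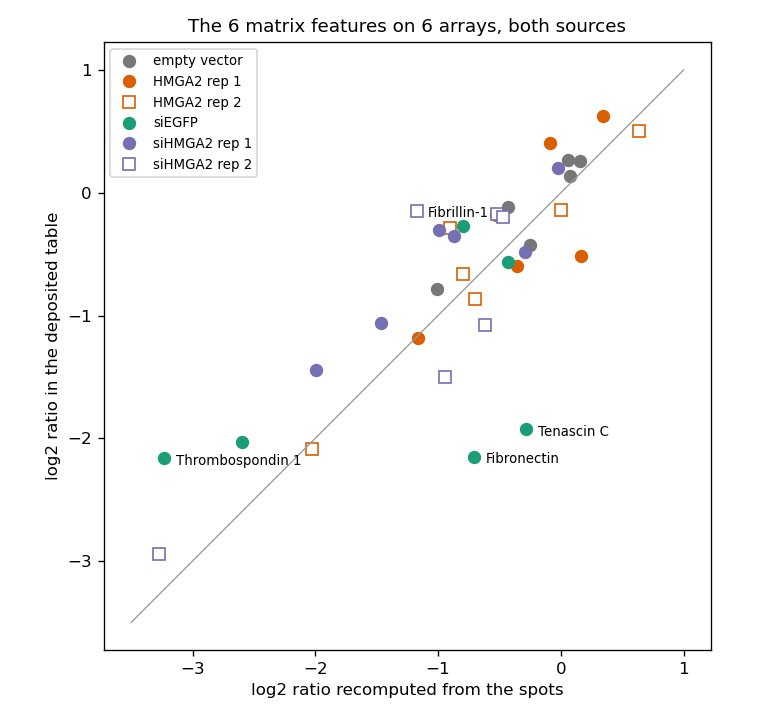
Log2 ratio of the 6 matrix features in the authors' deposited table (vertical axis) against the value recomputed from the spots (horizontal axis) on the 6 arrays, with the line of equality. Fibronectin (-2.15 against -0.71) and Tenascin C (-1.93 against -0.28) on the siEGFP array lie far below the line.

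Features with a pattern close to a member were ranked by the root mean square (RMS) difference of log2 ratios over the 6 arrays, which all share the ROSE199 reference. For Thrombospondin 1 these were SM22 (RMS 0.57, Pearson r 0.94), an actin-binding protein of smooth muscle, NAP-22 (0.60, r 0.90) and Lox (0.64, r 0.85), the enzyme that crosslinks collagen and elastin. For Agrin they were MUK2 (0.33, r 0.99), the Coxsackie and adenovirus receptor homolog (0.53, r 0.92), a cell junction protein, and Red-1 (0.62, r 0.85). The nearest feature to Tenascin C was Nras-rat (0.15), to Fibronectin ZFDCP (0.26), to Fibrillin-1 Fra2 (0.27) and to Osteonectin the Single strand DNA binding protein (0.31). Thrombospondin 1 and Agrin themselves differed by an RMS of 1.78 with an r of 0.62, so no member was among the 3 nearest of another.

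Other matrix genes on the array were called in both directions in ROSEA25 cells, where 15.4% of all features were called lower and 11.3% higher in siEGFP against ROSE199. Of 3 features for collagen and its crosslinking, Collagen alpha (-4.70) and Lox (-3.13) were called lower and LOXRP (1.46), a lysyl oxidase related protein, higher in siEGFP against ROSE199. Against siEGFP, siHMGA2 gave 1 call, Collagen alpha 1.36 higher, where 8.68% of all features were called higher. HMGA2 against the empty vector gave 1 call, Collagen alpha at -1.44, where 3.22% of all features were called lower. The medians of this list were -3.13, 0.66 and 0.28 in these comparisons, beside -0.02, 0.03 and 0.00 over all features. In siHMGA2 against ROSE199, Collagen alpha (-3.34) and Lox (-2.47) were called lower (10.3% of all features) and LOXRP (1.13) higher (8.68%). HMGA2 against ROSE199 gave 1 call, Collagen alpha at -2.87, where 2.25% of all features were called lower. The empty vector against ROSE199 gave 2 calls, Collagen alpha (-1.42) and Lox (-1.24), where 1.61% were called lower.

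Of 7 matrix proteases and inhibitors, 3 were called higher in siEGFP against ROSE199 (11.3% of all features) and none lower (15.4% of all features): the stromelysins MMP10 (3.82) and MMP-3 (2.49) and the lysosomal protease Cathepsin D (1.29). The list's median there was 0.71. The same 3 were called higher in siHMGA2 against ROSE199 (8.68% of all features), at 3.32, 2.01 and 1.26, and none of the 7 was called in siHMGA2 against siEGFP or in HMGA2 against the empty vector. Of 5 matrix and cell surface receptors, the hyaluronan receptor CD44 (2.78) and the caveolar coat protein Cav-1 (1.12) were called higher in siEGFP against ROSE199 (11.3% of all features), with a list median of 0.96. Cav-1 was also called higher, at 1.04, in HMGA2 against the empty vector (4.5% of all features). In siHMGA2 against ROSE199, CD44 (1.79) and Cav-1 (1.04) were called higher (8.68% of all features).

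Of 6 secreted regulators of matrix genes and their receptors, 5 were called lower in siEGFP against ROSE199 (15.4% of all features) and none higher (11.3% of all features), with a list median of -3.31. They were FISP-12 (-5.97) and Cyr61 (-3.04), matricellular proteins of the CCN family, Follistatin related protein (-3.92), TSC36 (-3.57) and TGFBT2R (-2.27). The same 5 were called higher in siHMGA2 against siEGFP (8.68% of all features), a comparison that shares the siEGFP array, between 1.09 for FISP-12 and 1.84 for Cyr61, with a median of 1.26 over the list. None of the 6 was called in HMGA2 against the empty vector. In siHMGA2 against ROSE199, 4 of the 6 were called lower (10.3% of all features) and none higher (8.68%). These were FISP-12 (-4.88), Follistatin related protein (-2.75), TSC36 (-2.07) and Cyr61 (-1.20). TSC36 and follistatin-related protein are both names used for the same gene, so these features may not be independent.

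Some markers of cell type were also called in the ROSEA25 comparisons. Of the 4 markers of fibroblasts and smooth muscle on the array (Collagen alpha, SM22, Thy-1 and TPM2), 3 were called lower in siEGFP against ROSE199 (15.4% of all features), Thy-1 being not called and not above blank on siEGFP, and their median was -2.84 there, -2.23 with siHMGA2, -0.85 with HMGA2 and -0.61 with the empty vector. Of the 5 markers of ovarian surface epithelium and mesothelium, 4 were called lower in siEGFP against ROSE199 (15.4% of all features), with medians of -1.98, -1.42, 0.13 and -0.25 in the same order. In siHMGA2 against siEGFP, where 8.68% of all features were called higher, 2 of the 4 fibroblast and smooth muscle markers were (SM22 at 1.75 and Collagen alpha at 1.36), while TPM2 read -0.53. There 2 of the 5 epithelial and mesothelial markers were called higher too, P-cadherin at 1.60 and E-cadherin at 1.13. In the ROSE199 channel these markers were above blank on all 6 arrays, except Thy-1, which was above blank on 5 of 6. Their part in the results for the matrix features was not tested, and no endothelial or leukocyte marker of the lists used matched a feature.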

How the data were processed

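RNA of 4 groups was measured on 6 spotted arrays with 2 dyes. Each labelling started from 20 µg of RNA and used dendrimer detection, per the labels' protocols. Per the file headers, the deposited quantification files give, for Cy3 and Cy5, a mean spot intensity and a median local background. The authors deposited log2 ratios beside them; their direction, sample over ROSE199, was read from the correlation with the spots (0.841 to 0.948), and their centring and background correction are not given in the sources used here. Column medians of that table lie between -0.10 and 0.20.

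The 1760 spots of an array include 37 blanks and 325 spots of beta actin. Background was corrected by normexp (offset 50), and ratios were centred by loess per array (span 0.3, 4 iterations; no weight for blank, beta actin and poor spots) in R 4.3.3 with limma 3.58.1. Spots were averaged into 311 features. Least squares fitted 4 group values and 1 dye term, leaving 1 residual degree of freedom per feature, so the spread was pooled as a scaled median absolute residual (SD 0.169; root mean square 0.229). The pooled SE was 0.22 for group against group in the same cells, 0.19 for a single-array group and 0.12 for a dye-swapped group against ROSE199, and 0.24 for siEGFP against the empty vector. The number of arrays limits the precision. The fit was tested on simulated data.

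No fold is given where a signal was not above blank. All 6 members are named in each of the 6 comparisons, as are called features of the related lists (up to 5 a list). The 3 nearest features are named for Thrombospondin 1 and Agrin, and only the nearest for the other members. The members and lists were chosen with earlier results of these data known. Of the alternatives, 16 were planned and 2 (the brightest spot only, an offset of 1) were added after seeing the data.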

Additional observations from a re-analysis of the deposited data

How the results depend on the processing

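Of the 18 alternatives, none turned the direction of a called member. The single call in the empty vector and in HMGA2 against ROSE199, Thrombospondin 1 in both, was made under all of them. In siHMGA2 against siEGFP the count of 2 became 1 with median centring, beta actin centring, the brightest spot only, an offset of 1 and no dye term. It became 3 with the deposited log2 ratios (Fibronectin, Tenascin C and Agrin, without Thrombospondin 1). Under those ratios 38 of the 311 features were called higher, against 27 in the main fit. With arrays scaled to the same spread the count became 0, where 13 of the 311 features were called, against 34 in the main fit. The count ranged from 1 to 2 when an array was left out, the 1 being without siHMGA2 replicate 1. In siHMGA2 against ROSE199 the count of 1 became 2 with plain background subtraction, median centring, scaled arrays, the median over spots, the brightest spot only, an offset of 1 and the Cy5 arrays only, and 3 with beta actin centring; it ranged from 1 to 2 when an array was left out. In siEGFP against ROSE199 the count of 2 became 4 with beta actin centring and 4 with the deposited log2 ratios. Under these settings 58 and 60 of the 311 features were called lower, in that order, against 48 in the main fit. The count became 3, adding Fibrillin-1, with plain background subtraction, median centring, the median over spots, the brightest spot only and an offset of 1. In HMGA2 against the empty vector the count ranged from 0 to 1 when an array was left out. The cause of these changes was not tested. Beta actin centring moved the median of all features by 0.20 in HMGA2 against the empty vector (32 features called higher and 7 lower, against 14 and 10) and by -0.26 in siEGFP against ROSE199 (37 higher and 58 lower). Requiring signal above blank in both channels of all arrays kept 269 features and 5 members, without Fibrillin-1. Leaving out an array of HMGA2 or siHMGA2 leaves no residual of its group, so the lone array is assumed to vary like the rest, and the single-array groups could not be left out. No paired analysis was possible because the labels carry no replicate numbers and both controls have a single array.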

Other observations

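The differences between the authors' deposited table and the spots were not spread evenly over the arrays. Values that differed by more than 1 on the log2 scale numbered 47 of 311 features on the siEGFP array, 8 on each siHMGA2 array and 0 on the empty vector and both HMGA2 arrays. Against ratios that were centred on the median without loess, the counts were 26 on siEGFP, 13 and 6 on siHMGA2 and again 0 on the other 3. Fibronectin and Tenascin C on siEGFP are among them under both ways of computing.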
